A study of Zea mays with 12 samples.

Results

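The change in root RNA of B73 maize seedlings between 6 and 12 hr in 5 µg/ml tunicamycin (TM) is described here, with roots taken at 0 hr as the starting level. The comparison rests on 4 of the 12 libraries of the series: the RNAseq duplicates at 6 hr and at 12 hr. The 2 RNAseq libraries at 0 hr entered the fit, and the 6 ribo-seq libraries made from the same lysates gave ribosome-protected fragments (RPFs) as a second readout. All groups were B73 roots, all seedlings at 6 and 12 hr had been put in TM, and no mock-treated roots were analysed here. Hence the effect of TM and the effect of hours in culture or time of day cannot be told apart. In whole roots, a change in the number of cells of one type and a change in RNA per cell cannot be told apart either. Of 39498 genes in the table, 23721 passed the filter on low counts and were tested. The table gives locus identifiers only, and 0 of them could be paired with gene names, so the tissue markers could not be checked and genes are named only where the study itself gives the locus.

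TM blocks N-glycosylation, so that proteins entering the endoplasmic reticulum (ER) misfold. Plants answer with the unfolded protein response (UPR), in which the sensor IRE1 splices the mRNA of a bZIP factor and membrane-bound bZIP factors are released to the nucleus. These factors turn on genes for chaperones, folding enzymes and the degradation of misfolded proteins. The question in the 6 to 12 hr interval is whether that RNA response went on, held or fell back.

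The RNA of 4 UPR genes was high at 6 hr and at 12 hr. BIP2, PDI-2 and ERDJ3a had risen by 6 hr with either scaling described below, and Derlin 1 passed that test with only 1 of them. With actin scaling BIP2, PDI-2, Derlin 1 and ERDJ3a stood 1.94 to 3.22 log2 units above 0 hr at 6 hr and 2.39 to 3.52 at 12 hr, and their difference between 6 and 12 hr was 0.30 to 0.45, near the shift of 0.45 shown by the median gene. Across all 23721 genes, 0 passed the test in either direction between 6 and 12 hr (0% higher, 0% lower; edgeR quasi-likelihood test over the 6 RNAseq libraries, smallest adjusted p = 0.466). That count depended on the 0 hr duplicates, which differed from each other more than the treated ones did.

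Depth and scaling bear on every value. The 6 hr libraries held 9861654 and 3976120 counts, the 12 hr libraries 6949768 and 4827189, and the 0 hr libraries 2019128 and 5285471. Library sizes were set from the count of actin (Zm00001d013873), as the methods of the study did, and a second scaling by the trimmed mean of M-values (TMM), which uses all genes, is given beside it. Actin was counted 363 and 129 times in the 6 hr duplicates and 203 and 106 times in the 12 hr duplicates. In counts scaled to library size (CPM), that was 36.8 and 32.4 against 29.2 and 22.0, so actin took a smaller share of both 12 hr libraries. With TMM scaling actin itself differed by -0.41 (log2, SE 0.27, adjusted p = 1.00, edgeR quasi-likelihood test). Actin scaling therefore placed 87.5% of genes above 0 between 6 and 12 hr, with a median log2 difference of 0.45, whereas TMM placed 50.7% above 0 with a median of 0.01. The actin-scaled median was 0.30 within replicate 1, 0.53 within replicate 2, and 0.10 and 0.72 for pairs of unlike replicate number. With actin scaling the median was 0.64 without 12 hr replicate 1 and 0.20 without 12 hr replicate 2. A log2 difference below is thus read against the median of its own scaling.

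BIP2 (Zm00001d014993), a luminal ER chaperone of the Hsp70 family, binds unfolded proteins. Per 100 actin counts, the 0 hr duplicates held 1190 and 1174 counts, the 6 hr duplicates 6348 and 6559, and the 12 hr duplicates 8886 and 7671. Both 12 hr libraries lay above both 6 hr libraries on this scale, as they did for 48.2% of all genes tested. Scaled by TMM, the starting levels were 351 and 510 CPM, the 6 hr duplicates reached 2322 and 2091 CPM, and the 12 hr duplicates 2623 and 1671 CPM. The 12 hr libraries then lay on either side of the 6 hr ones, where 16.6% of all genes had both above. The log2 difference between 12 and 6 hr was 0.36 (SE 0.25, adjusted p = 0.639, edgeR quasi-likelihood test), or -0.04 (SE 0.24) with TMM. The 95% interval ran from 0.89-fold to 1.84-fold with actin scaling and from 0.68-fold to 1.40-fold with TMM. A doubling or a halving of BIP2 RNA after 6 hr thus lay outside both intervals. In the first 6 hr the same fit gave 2.45 (SE 0.26, adjusted p = 0.000568).

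PDI-2 (Zm00001d005866) belongs to the protein disulfide isomerases, which form and rearrange disulfide bonds of proteins in the ER. The starting roots held 112 and 121 counts per 100 actin counts, the 6 hr roots 551 and 600, and the 12 hr roots 729 and 757. With TMM scaling the 6 hr libraries had 202 and 191 CPM and the 12 hr libraries 215 and 165 CPM. The 12 hr values lay above the 6 hr values with actin scaling and around them with TMM. The log2 difference was 0.37 (SE 0.29, adjusted p = 0.639, edgeR quasi-likelihood test) with an interval of 0.84-fold to 1.98-fold. With TMM it was -0.05 (0.69-fold to 1.36-fold).

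**Figure D1:**
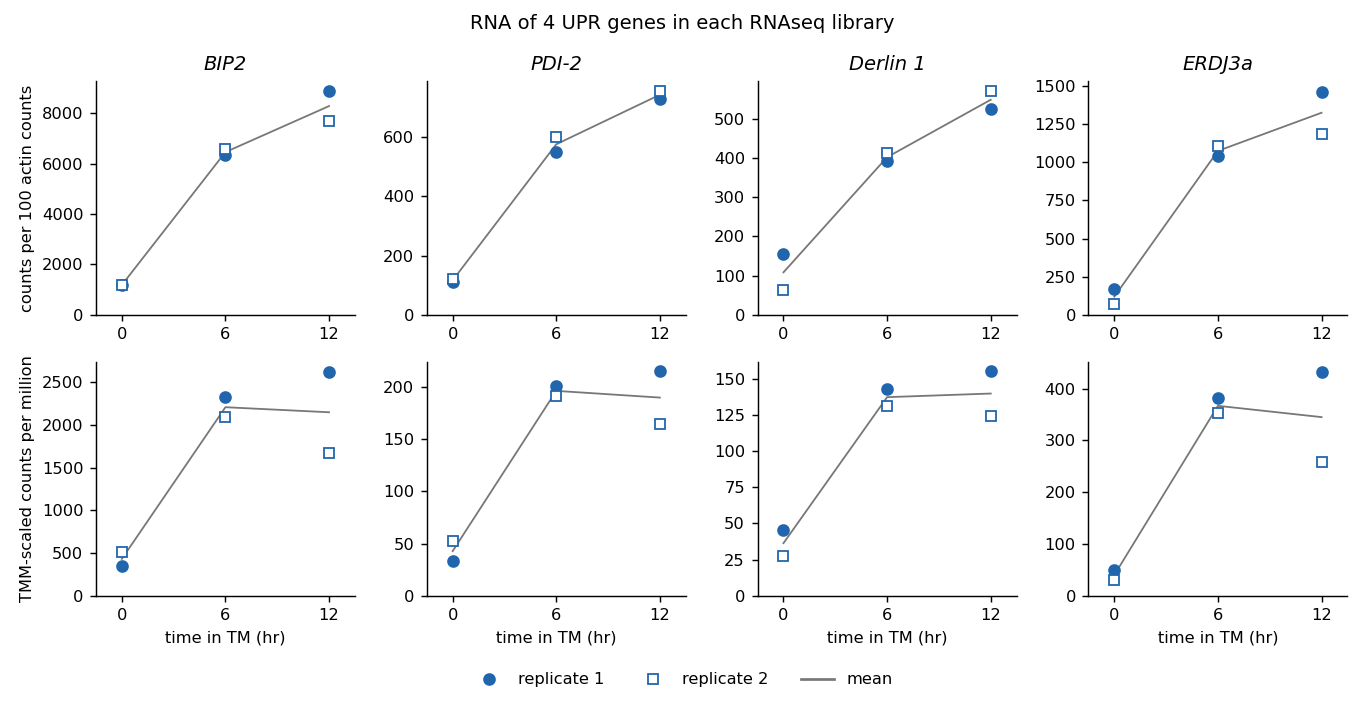
RNA of BIP2, PDI-2, Derlin 1 and ERDJ3a in each RNAseq library against hours in TM, as counts per 100 actin counts (upper row) and TMM-scaled CPM (lower row). Points are single libraries, filled for replicate 1 and open for replicate 2, and lines join the means. All 4 genes were high at 6 and 12 hr. Both 12 hr points lie above both 6 hr points only in the upper row. In the lower row the 12 hr points lie on either side of the 6 hr points.

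Derlin 1 (Zm00001d010368) is a membrane protein of the pathway that moves misfolded proteins out of the ER for degradation. Relative to 100 actin counts it was at 154 and 62.6 in the starting roots, at 391 and 412 after 6 hr, and at 526 and 571 after 12 hr. The duplicates at 0 hr differed more than those at 6 or 12 hr. The log2 difference between 12 and 6 hr was 0.45 (SE 0.37, adjusted p = 0.641, edgeR quasi-likelihood test), the same as that of the median gene, and 0.03 (SE 0.23) with TMM. The interval was 0.80-fold to 2.34-fold with actin scaling, which leaves room for a doubling, and 0.71-fold to 1.45-fold with TMM. Its difference between 6 and 0 hr, 1.94, did not pass the test with actin scaling (adjusted p = 0.104) and did with TMM (1.96, adjusted p = 0.0150, edgeR quasi-likelihood test).

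ERDJ3a (Zm00001d047726) encodes a J-domain protein, a class of co-chaperones that stimulate the ATPase of BiP. It showed the greatest rise of these genes in the first 6 hr, from 168 and 70.04 counts per 100 actin counts to 1042 and 1106, and the 12 hr duplicates held 1462 and 1186. With TMM scaling the 6 hr libraries held 381 and 353 CPM and the 12 hr libraries 432 and 258 CPM. The 12 hr duplicates thus differed from each other more than their mean differed from that at 6 hr. The log2 difference from 6 to 12 hr was 0.30 (SE 0.35, adjusted p = 0.695, edgeR quasi-likelihood test; 0.74-fold to 2.06-fold) and -0.09 (0.63-fold to 1.40-fold) with TMM. In the first interval it had been 3.22 (SE 0.39, adjusted p = 0.00146).

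The signs of the small 6 to 12 hr differences of BIP2, PDI-2 and ERDJ3a thus flipped with the scaling, and relative to the median gene they were -0.09, -0.08 and -0.14 with actin scaling and -0.04, -0.05 and -0.09 with TMM. The RPFs of the same lysates gave log2 differences of 0.32 for BIP2, 0.24 for PDI-2, 0.35 for Derlin 1 and 0.31 for ERDJ3a, beside a median of 0.29 over 20414 genes, with actin scaling. With TMM they were 0.05, -0.03, 0.09 and 0.04. None of these passed the test (adjusted p of 1.00 for each, edgeR quasi-likelihood test).

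The remaining genes that the study gives by locus do not belong to the UPR, and none passed the test. PAB2 (Zm00001d005276), a poly(A)-binding protein, held 663 and 650 counts per 100 actin counts in the 6 hr duplicates and 824 and 1159 in the 12 hr ones, a log2 difference of 0.59 (SE 0.34, adjusted p = 0.639, edgeR quasi-likelihood test) or 0.14 with TMM. Alpha tubulin 3 (Zm00001d013367), a cytoskeletal gene, held 1367 and 1518 after 6 hr and 1657 in both 12 hr libraries, a difference of 0.20 (SE 0.27, adjusted p = 0.735) that turned to -0.21 with TMM.

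**Figure D2:**
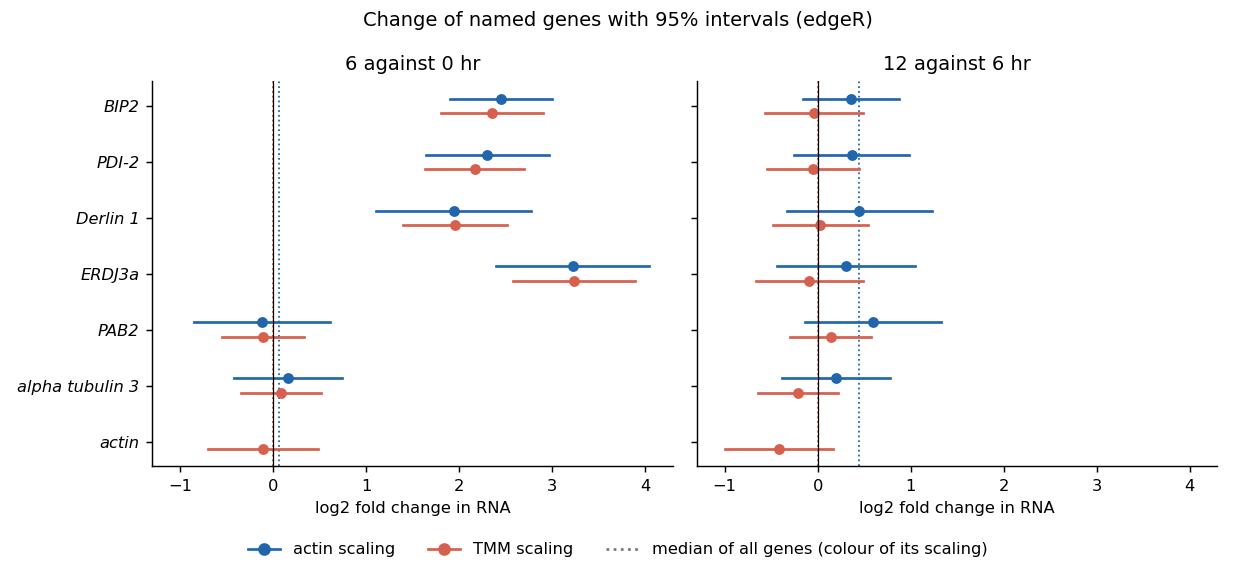
Log2 fold change in RNA with its 95% interval (edgeR, 6 RNAseq libraries) for the genes given by locus, between 0 and 6 hr (left) and between 6 and 12 hr (right), with actin scaling in blue and TMM scaling in red; dotted lines are the medians of all genes. The UPR genes lie between 1.94 and 3.24 on the left and between -0.09 and 0.45 on the right, where every interval includes 0.

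Over all genes and all 6 libraries, the interval from 0 to 6 hr held more calls than that from 6 to 12 hr, and this order turned when each interval was fitted on its own 4 libraries (10 higher and 0 lower against 143 and 3 with actin scaling). With actin scaling 21 genes rose (0.0885%) and 1 fell (0.00422%) between 0 and 6 hr, and 66 rose (0.278%) and 3 fell (0.0126%) between 0 and 12 hr, against the 0 between 6 and 12 hr. With TMM the counts were 21 (0.0885%) and 5 (0.0211%) at 6 hr, 40 (0.169%) and 36 (0.152%) at 12 hr, and 0 and 0 between 6 and 12 hr (edgeR quasi-likelihood test, smallest adjusted p = 0.284). The counts at 6 hr moved to 179 and 15 without 0 hr replicate 1 and to 80 and 372 without 0 hr replicate 2, and the single gene lower became 4, 24 and 0 without 6 hr replicate 1, 6 hr replicate 2 and 12 hr replicate 1. At an unadjusted p below 0.05, 1135 genes were higher and 32 lower at 12 than at 6 hr with actin scaling, and 286 and 280 with TMM. DESeq2 with actin size factors called 1 higher and 1 lower, DESeq2 with its own size factors 6 and 5, and limma voom 0 and 0.

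The count of 0 did not hold without the 0 hr libraries. When the 6 and 12 hr libraries were fitted alone, edgeR called 143 of 23364 genes higher (0.612%) and 3 lower (0.0128%) with actin scaling, and 9 higher (0.0385%) and 4 lower (0.0171%) with TMM. For the TMM calls, the RPFs of the same lysates were above 0 for 9 of the 9 genes and below 0 for 4 of the 4, with medians of 1.69 and -1.49 (TMM). Over all genes tested for RPFs, 51.1% were above 0, with a median of 0.01 (TMM). For the actin calls, RPFs were above 0 in 124 of the 131 higher genes tested for RPFs (median 1.05, TMM). They were above 0 in 0 of the 3 lower genes (median -1.81, TMM). Leaving out 0 hr replicate 1 alone gave 140 and 4, and 0 hr replicate 2 alone 144 and 4, with actin scaling (10 and 9, and 12 and 8, with TMM). Without 6 hr replicate 2 the counts were 4 and 1, and without 6 hr replicate 1 or either 12 hr library they were 0 and 0. With actin scaling the prior degrees of freedom were infinite in the fit of the 6 and 12 hr libraries alone and in those without 1 of the 0 hr libraries, so that there the spread of a gene between its own duplicates hardly entered its p-value. The biological coefficient of variation was 0.334 with all 6 libraries and 0.268 without those at 0 hr (0.242 and 0.197 with TMM).

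Pairs of libraries were therefore compared directly over 6248 genes averaging 200 counts or more, thinned to the depth of the shallowest library. The median absolute log2 difference was 0.162 between the 6 hr duplicates and 0.226 between the 12 hr duplicates. The 4 pairs of a 6 and a 12 hr library differed by 0.161 to 0.226, about the range of these duplicates. The 0 hr duplicates differed by 0.295, pairs of 0 and 6 hr by 0.222 to 0.280, and pairs of 0 and 12 hr by 0.248 to 0.314. More than a 2-fold difference was seen in 0.640% to 1.95% of the genes between 6 and 12 hr, in 0.368% between the 6 hr duplicates and in 1.81% between the 12 hr duplicates. With 2 libraries per time point, these are descriptions of the libraries.

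**Figure D3:**
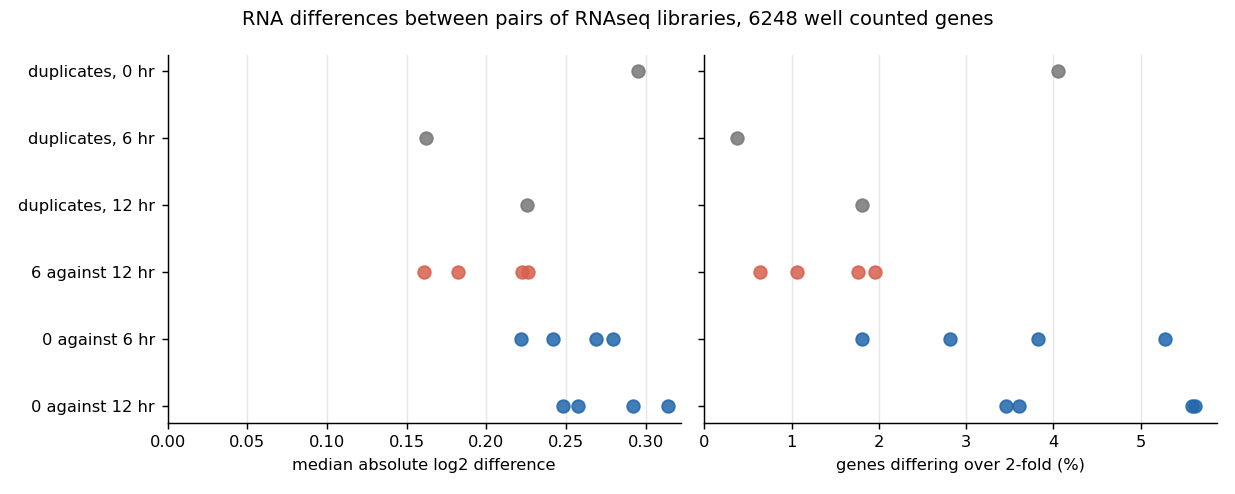
Difference in RNA between pairs of RNAseq libraries over 6248 genes, as the median absolute log2 difference (left) and the percent of genes differing over 2-fold (right). Each point is 1 pair; the 4 pairs of 6 and 12 hr (red, 0.161 to 0.226) lie where the duplicates of 6 and 12 hr do (grey, 0.162 and 0.226).

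The share of genes that differed over 2-fold varied with their count. Below 3 CPM (TMM), 20.0% of 3415 genes differed more than 2-fold between 6 and 12 hr, with a median SE of 0.85 on the log2 scale. The share was 5.91% from 3 to 10 CPM, 1.06% from 10 to 30, 0.405% from 30 to 100 and 0.456% from 100 to 300. Of the 359 genes over 300 CPM, 0 differed 2-fold, where the median SE was 0.19. Between 0 and 6 hr the share was 32.01% below 3 CPM, 1.55% from 30 to 100 CPM and 3.62% over 300 CPM. The 100 genes with the highest counts, among which BIP2 ranked 21, ranged from -0.86 to 0.68 with TMM, and 7 of them had an unadjusted p below 0.05.

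The genes that rose in the first 6 hr were still high at 12 hr. The 21 genes called at 6 hr had a median log2 change of 2.45 at 6 hr and 2.81 at 12 hr against 0 hr. Between 6 and 12 hr their median was 0.37 (range -0.07 to 1.26), beside 0.45 over all genes, and 9 of the 21 lay above that median. All 21 were still more than 2-fold above 0 hr at 12 hr and were called there too, in a comparison that shares the 0 hr libraries. With TMM the 21 genes called at 6 hr had a median of 0.02 between 6 and 12 hr (range -0.35 to 0.89), with 11 of 21 above 0. At 12 hr all 21 were more than 2-fold above 0 hr with TMM, as were 1315 of all 23721 genes. With either scaling the 21 were chosen against the same 0 hr libraries, which favours this, so these counts are descriptions. Of the 66 genes called at 12 hr, 59 were already more than 2-fold above 0 hr at 6 hr (median 1.67 at 6 hr, 2.31 at 12 hr), and 8 were more than 2-fold higher at 12 than at 6 hr. Over all genes 6.18% were more than 2-fold above 0 hr at 6 hr. The genes were chosen and measured against the same 0 hr libraries, so a low 0 hr value raises both counts, and the 59 is a description. They were also chosen for a high level at 12 hr, which favours a rise after 6 hr, so the 8 is a description too. Between 6 and 12 hr, 5.37% of all genes lay more than 2-fold from the median change, in either direction. With TMM, 34 of the 40 genes higher and 31 of the 36 genes lower at 12 hr were past 2-fold at 6 hr. Over all genes 4.88% were past 2-fold upward and 4.92% downward at 6 hr with TMM. The 34 and the 31 share the 0 hr libraries in the same way and are descriptions. The 36 lower genes had medians of -1.29 at 6 hr and -1.73 at 12 hr, and -0.53 between them, with 3 of the 36 above 0. They were chosen for a low level at 12 hr, so that last value is only a description.

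**Figure D4:**
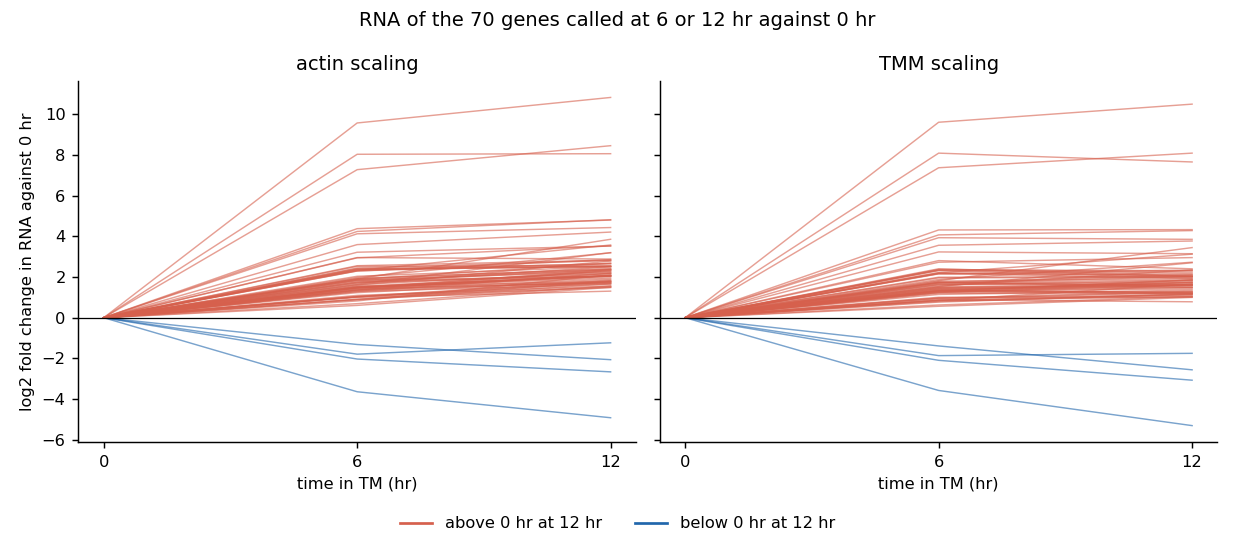
Log2 fold change in RNA against 0 hr at 6 and 12 hr of the 70 genes called at either time with actin scaling, drawn with actin scaling (left) and TMM scaling (right); each line is 1 gene. Most lines change less after 6 hr than before it, and with TMM most are flatter there than with actin scaling. With actin scaling the 66 genes called higher at 12 hr had a median of 1.67 between 0 and 6 hr and of 0.55 between 6 and 12 hr.

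A gene chosen for a high 6 hr value can drop back by sampling error alone, so responders were also chosen in 1 of the 6 hr libraries and measured in the other. Genes at least 4-fold above both 0 hr libraries in 6 hr replicate 1 numbered 20. They stood at a median of 2.65 above 0 hr in 6 hr replicate 2, and of 2.81 at 12 hr with both 12 hr libraries averaged. The difference of that 12 hr average from 6 hr replicate 2 had a median of 0.24, beside 0.32 over all genes. Of the 20, 0 differed more than 2-fold upward and 3 downward. The 15 genes chosen in replicate 2 and measured in replicate 1 had a median of 0.30, beside 0.52 over all genes, with 0 more than 2-fold up and 1 down. Responders below 0 hr were few, 12 and 2 genes. The 12 had a median difference of -0.33, beside 0.32 over all genes, with 1 more than 2-fold up and 5 down. Against 0 hr the 12 lay at -2.17 at 6 hr and -2.23 at 12 hr. The 2 genes chosen in replicate 2 and measured in replicate 1 had a median difference of 0.52, beside 0.52 over all genes, with 0 more than 2-fold up or down. In both directions the levels against 0 hr share the 0 hr libraries with the choice of the genes. A 0 hr value that is off by sampling error shifts both time points alike, so these levels are descriptions.

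The change in the second interval was set against that in the first in 1 contrast, a test added after the data were seen. Of 23721 genes, 1 passed it (0.00422%), with the change after 6 hr lower than that before (log2 difference -3.96, SE 0.49, adjusted p = 0.0104, edgeR quasi-likelihood test, and 0.00183 with TMM). It was counted 52 and 131 times in the starting roots, 5388 and 1912 times after 6 hr and 4214 and 2013 times after 12 hr. That is a rise of 4.38 on the log2 scale by 6 hr and a difference of 0.42 thereafter (0.02 with TMM). The same contrast was -2.09 for BIP2 (SE 0.41), -1.93 for PDI-2 (SE 0.50), -1.49 for Derlin 1 (SE 0.63) and -2.92 for ERDJ3a (SE 0.59). None of these passed after adjustment (adjusted p = 0.491, 1.00, 1.00 and 0.491, edgeR quasi-likelihood test), although each had an unadjusted p below 0.05.

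Some genes stood apart between 6 and 12 hr in every library. Of the 15461 genes that averaged 50 counts or more over the 4 libraries of 6 and 12 hr, both 12 hr libraries were more than 2-fold above both 6 hr libraries for 14 (0.0906%) and below them for 13 (0.0841%) with TMM. With actin scaling the counts were 56 (0.362%) and 3 (0.0194%). The 14 genes chosen in this way had a median log2 difference of 1.61 (range 1.29 to 4.87). At 6 hr 10 of them were more than 2-fold below 0 hr, and at 12 hr 10 were within 2-fold of it, with medians of -1.66 and 0.10. Of all 15461 genes, 209 were more than 2-fold below 0 hr at 6 hr and 14825 were within 2-fold of it at 12 hr. Most of the 14 were thus low at 6 hr and within 2-fold of 0 hr at 12 hr, the latter being usual for all genes. These values share libraries with the choice of the genes and are a description. In 7 of the 14, both 6 hr libraries lay below both 0 hr libraries, beside 17.5% of the 15461 genes. The 13 genes that were lower ran the other way, with medians of 0.68 at 6 hr and -0.95 at 12 hr against 0 hr. In 8 of them both 6 hr libraries lay above both at 0 hr, beside 20.7% of the 15461 genes. Both sets were chosen for low or high 6 hr libraries, which favours these orders. The 7 and the 8 are therefore descriptions too.

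The RPFs were not used to choose these genes, but they come from the same lysates. Of the 14 genes higher in RNA, 14 had RPFs above 0 between 6 and 12 hr, with a median of 1.85 and a range of 1.24 to 3.96, beside 0.01 over all genes (TMM). In 14 of 14 both 12 hr ribo-seq libraries lay above both 6 hr ones, beside 16.4% of the 15166 such genes tested for RPFs. Of the 13 genes lower in RNA, 13 had RPFs below 0, with a median of -1.58 and a range of -3.84 to -0.46, and in 11 both 12 hr ribo-seq libraries lay below both 6 hr ones, beside 13.7%. Over all genes, the edgeR quasi-likelihood test on RPFs called 9 higher (0.0441%) and 1 lower (0.0049%) at 12 than at 6 hr with actin scaling, in a fit whose prior degrees of freedom were infinite. The 9 became 0 and 1 without 6 hr replicate 1 or 2, and 5 and 3 without 12 hr replicate 1 or 2, and the single gene lower was called in no such fit but that without 6 hr replicate 2. With TMM it called 0 and 0 (315 and 229 at an unadjusted p below 0.05), and DESeq2 with actin size factors called 0 and 0.

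**Figure D5:**
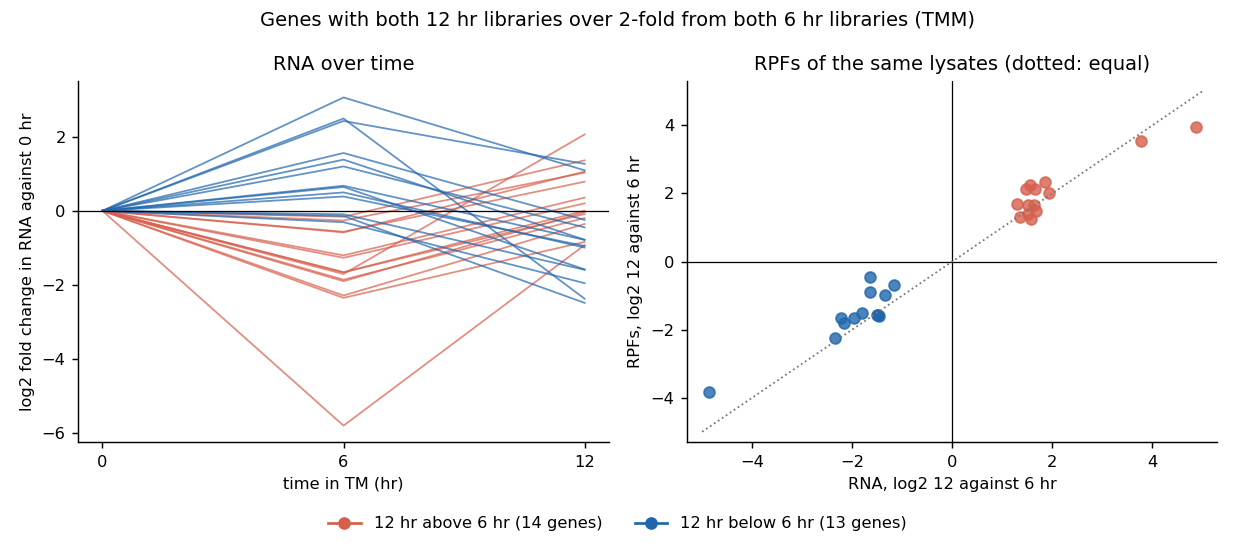
The 14 genes (red) and 13 genes (blue) whose 12 hr RNAseq libraries lay more than 2-fold above or below both 6 hr libraries (TMM): log2 RNA against 0 hr over time (left) and the log2 12 against 6 hr difference in RPFs against that in RNA (right), 1 line or point per gene. The red points lie at RPF differences of 1.24 to 3.96 and the blue points at -3.84 to -0.46, on the side of 0 that RNA shows.

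The loci named by rule, those with the smallest unadjusted p in each direction, are given as values since none passed the test over 6 libraries. Zm00001d042143 was counted 19 and 10 times in the starting roots, 12 and 8 times after 6 hr and 134 and 107 times after 12 hr, a log2 difference of 4.21 (SE 0.76, adjusted p = 0.466, edgeR quasi-likelihood test) or 3.77 with TMM. Its counts were low before 12 hr in all 4 libraries, and its RPFs differed by 3.86. Zm00001d051251 gave 137 and 193 counts in the starting roots, 138 and 59 after 6 hr and 364 and 180 after 12 hr. It stood 1.90 log2 units lower at 6 than at 0 hr, 2.07 higher at 12 than at 6 hr (SE 0.44, adjusted p = 0.639, edgeR quasi-likelihood test; 1.66 with TMM), and 0.17 above its 0 hr level at 12 hr.

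In the other direction, Zm00001d007462 gave 8 and 14 counts in the starting roots, 258 and 38 after 6 hr and 4 and 3 after 12 hr. The summed counts of 296 at 6 hr and 7 at 12 hr gave a ratio of 35.5 after TMM scaling, with a 95% exact interval of 17.04 to 89.2 that covers counting error only. The 6 hr duplicates themselves differed, at 26.0 and 9.39 CPM, and the adjusted p was 0.466 (edgeR quasi-likelihood test, log2 difference -4.42, SE 0.75). Its RPFs differed by -3.51 with actin scaling (adjusted p = 0.00860, edgeR quasi-likelihood test, infinite prior degrees of freedom) and by -3.84 with TMM (adjusted p = 0.725, same test). Zm00001d041959 gave 16 and 98 counts in the starting roots, 115 and 56 after 6 hr and 17 and 12 after 12 hr, a log2 difference of -1.94 (SE 0.55, adjusted p = 0.639, edgeR quasi-likelihood test), or -2.35 with TMM, and -1.94 in RPFs. The 6 and 12 hr libraries were also fitted alone with actin scaling. There Zm00001d042143, Zm00001d051251 and Zm00001d007462 passed the test (adjusted p = 3.34e-12, 5.91e-05 and 1.12e-08, edgeR quasi-likelihood test). The prior degrees of freedom of that fit were infinite, so these p-values rest mainly on how other genes varied. With TMM the same libraries gave a smallest adjusted p of 0.0134 over all genes (same test). The loci were moreover picked by smallest p, so their p-values are descriptions.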

How the data were processed

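RNA and RPFs were measured in roots at 0, 6 and 12 hr in TM, with biological duplicates and 1 RNAseq and 1 ribo-seq library per lysate. According to the methods and the submitters' processing notes (FastQC, cutadapt 1.16, Bowtie 1.2, SAMtools), the authors trimmed reads, removed noncoding RNA reads, mapped the rest to coding sequences of B73 RefGen_v4 and summed transcripts to genes. The authors deposited raw counts without normalization. Reads with several equally good hits were kept once, so near-identical genes may share counts.

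Genes passing filterByExpr were tested with edgeR 4.0.16 (glmQLFit, glmQLFTest, R 4.3.3) over 6 RNAseq libraries, with time point as the factor, effective library sizes set from actin counts, and Benjamini-Hochberg adjustment at 0.05. RPFs were tested likewise. The standard error is the log2 change divided by the square root of F. Library differences and responders used log2 of scaled counts with a pseudocount of 0.5. Counting intervals are exact binomial at 95%. P-values set a difference against a spread between duplicates that was estimated partly from other genes. Where the prior degrees of freedom were infinite, it came mainly from other genes. Tests were first run on simulated data.

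Genes were named where the study gives a complete locus. Beyond these, the rule named the 2 loci per direction of smallest unadjusted p averaging 50 counts or more over the 4 libraries of 6 and 12 hr and with 12 hr duplicates on one side of the 6 hr duplicates, since none passed the test and no table pairs loci with names. The planned gene lists and tissue markers could not be run for the same reason. Members and lists were chosen with earlier results of these data known. Replicate numbers did not pair the samples (correlations of deviations across 14634 genes averaging 50 counts or more over all 6 RNAseq libraries: 6 and 12 hr 0.10, 0 and 6 hr -0.09, 0 and 12 hr -0.32). Alternatives used scaling by alpha tubulin 3, by TMM or by total count, other filters, DESeq2 1.42.0, limma 3.58.1 voom, left-out libraries, a replicate block, and the 6 and 12 hr libraries alone. There were 0 unused columns.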

Additional observations from a re-analysis of the deposited data

Results flagged for a closer look

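The change after 6 hr differed from the change before 6 hr for 1 gene of 23721 (log2 difference between the intervals -3.96, adjusted p = 0.0104, edgeR quasi-likelihood test), whose RNA rose by 4.38 on the log2 scale by 6 hr and differed by 0.42 after it. Both intervals share the 6 hr libraries.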

How the results depend on the processing

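The count of genes higher and lower at 12 than at 6 hr was 0 and 0 with actin, TMM, total count and alpha tubulin 3 scaling, for genes averaging 50 counts or more (all 6 libraries), with limma voom and with the replicate block (also 0 and 0 with TMM and the block). It was 40 and 1 with no filter on low counts, 143 and 3 with only the libraries compared, 1 and 1 with DESeq2 and actin size factors, and 6 and 5 with DESeq2's own. Among settings added after the data were seen, only the libraries compared gave 9 and 4 with TMM and 22 and 15 with DESeq2's own size factors. Leaving out 1 library gave 0 to 144 higher and 0 to 9 lower over both scalings. The genes higher at 6 than at 0 hr (21) became 64 with no filter, 10 with only the libraries compared, 41 and 65 with DESeq2 (actin, own), 10 with the replicate block, and 16 to 179 with a library left out. Those lower (1) became 5 with TMM, 8 with total counts, 3 with alpha tubulin 3, 86 with no filter, 0 with only the libraries compared, 13 and 74 with DESeq2, 5 with voom, 0 with the block, and 0 to 372 with a library left out. The median change from 6 to 12 hr (0.45) became 0.0058 with TMM and with DESeq2's own size factors, -0.013 with total counts, 0.24 with alpha tubulin 3, and 0.20 to 0.64 with a library left out. The differences of BIP2, PDI-2, ERDJ3a and alpha tubulin 3 turned negative with TMM (-0.039, -0.048, -0.088, -0.21), total counts (-0.061, -0.068, -0.11, -0.23) and DESeq2's own size factors (-0.038, -0.047, -0.087, -0.21). For responders of 6 hr replicate 1, the median relative to all genes moved from -0.081 to 0.032 with a 2-fold choice. RPF calls (9 and 1) became 0 and 0 with TMM and with DESeq2, 2 and 0 with the block, and 0 to 8 and 0 to 1 with a library left out. Apart from the scalings, whose construction sets the median, the cause was not tested. Actin counts of 59 to 363 per RNAseq library and duplicates at each time point limit the precision. A fit without the 0 hr libraries has 2 residual degrees of freedom.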

Other observations

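Among the 50 genes of smallest unadjusted p that were lower at 12 than at 6 hr with TMM, 5 had locus numbers within a span of 10. They were the 5 loci of that span that passed the filter, and were singled out after their values were seen. Their summed RNA was 225 and 195 CPM in the starting roots, 280 and 331 CPM after 6 hr, and 109 and 133 CPM after 12 hr. Their single log2 differences between 12 and 6 hr ran from -2.16 to -1.14 with TMM, with adjusted p of 0.287 to 0.987 (edgeR quasi-likelihood test). With actin scaling the differences ran from -1.71 to -0.66. Against 0 hr they stood at 0.24 to 1.38 at 6 hr and at -0.99 to -0.62 at 12 hr. Their RPFs, summed, were 835 and 720 CPM in the starting roots, 1291 and 1509 CPM after 6 hr, and 502 and 478 CPM after 12 hr. Whether these neighbours are near-identical copies that share reads was not tested.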
